A study of Mus musculus with 2 samples.

Results

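The 7SK RNA and the genes of the P-TEFb complex were described in CH12.LX, an immortalized line from a mouse B-cell lymphoma. Per the labels the line is female and of strain B10.H-2aH-4bp/Wts. This group of genes holds 8 of the 43346 genes in the deposited tables: Rn7sk, Larp7, Mepce, Hexim1, Hexim2, Cdk9, Ccnt1 and Ccnt2. The members were chosen by gene symbol, and the set was picked from TPM levels and replicate differences already seen in these same libraries, so what follows is a description of 2 libraries with no test. The study holds 1 group, with no treatment or genetic change named in the labels, of 2 RNA libraries numbered as biological replicates 1 and 2. Each replicate has its own biosample. Libraries were made from RNA over 200 nt, and the samples contained ERCC spike-ins, synthetic RNAs of known amount. The labels call the assay total RNA sequencing, yet their description field says poly(A)+, and this conflict bears directly on 7SK, which carries no long poly(A) tail.

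7SK is a small nuclear RNA made by RNA polymerase III. It is the scaffold of a particle that holds P-TEFb, the kinase of Cdk9 and a T-type cyclin, in an inactive state. MEPCE caps the 5′ end of 7SK, LARP7 binds its uridine-rich 3′ end, and a HEXIM dimer bound to the RNA inhibits the kinase. P-TEFb released from the particle phosphorylates RNA polymerase II and its pausing factors, which lets paused polymerase move into productive elongation.

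Rn7sk (ENSMUSG00000065037.1) is a single exon of 331 nt at chr9:78175303-78175633 on the minus strand of mm10. Its 5′ end is shown because human HEXIM1 is known to bind GAUC repeats there, and its 3′ end because LARP7 binds the terminal uridines. The letters are those of the GENCODE M21 transcript, written as DNA, 5′ to 3′. Capitals mark GATC in the 5′ piece (nt 1 to 100, chr9:78175534-78175633) and the last 3 bases in the 3′ piece (nt 272 to 331, chr9:78175303-78175362).
Rn7sk 5′ end: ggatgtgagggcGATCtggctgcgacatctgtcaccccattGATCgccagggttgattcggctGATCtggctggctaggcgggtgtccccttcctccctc
Rn7sk 3′ end: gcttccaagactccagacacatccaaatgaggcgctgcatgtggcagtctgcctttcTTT
GATC reads the same on both strands, and Rn7sk holds it 3 times, at positions 13, 42 and 64. Of 139316 annotated transcripts of at least 100 nt, 23.4% hold GATC in their 5′-most 100 bases and 0.323% hold it 3 times or more there. The annotated Rn7sk ends in TTT, as do 3.06% of 141767 transcripts and 10.4% of 566 transcripts of the miscellaneous RNA class to which it belongs.

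All 8 members were at 1 TPM or more in both replicates, where 25.4% of all annotated genes and 45.9% of protein-coding genes were, levels that were known when the set was chosen. TPM is a relative abundance per effective transcript length, scaled within each library. Rn7sk was far above the others and differed most between the replicates. Cdk9 was the highest of the protein-coding members, Hexim1 the lowest, and the other 5 lay close together.

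**Figure D1:**
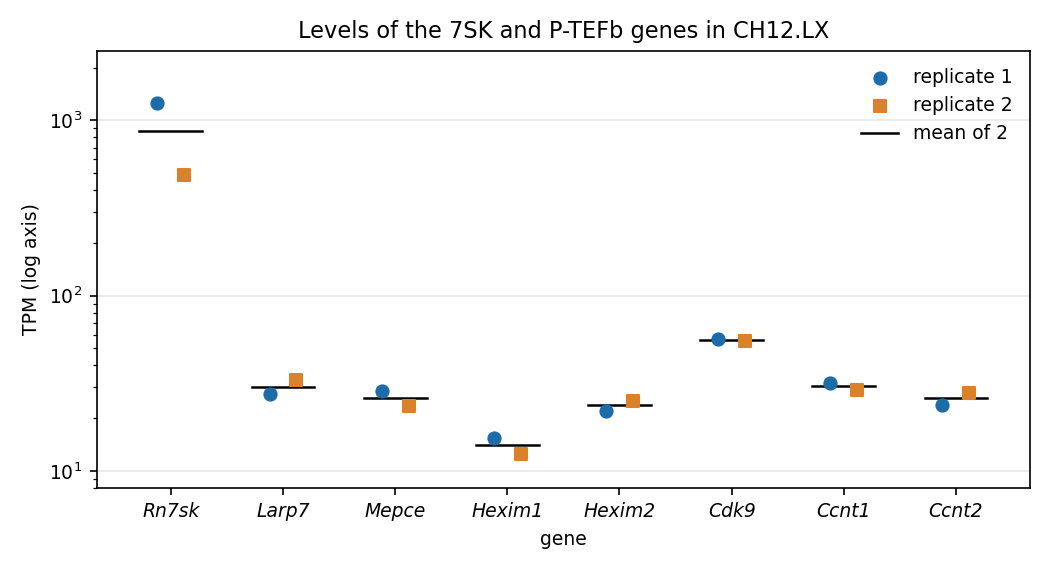
TPM (log axis) of the 8 genes in replicate 1 (blue circles) and replicate 2 (orange squares), with black lines at the mean of 2. Rn7sk stood at 1258 and 490.0 TPM, Cdk9 at 56.7 and 55.1 TPM, and the other 6 genes between 12.5 and 32.8 TPM.

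Rn7sk had 1258 TPM in replicate 1 and 490.0 TPM in replicate 2, from 2849 and 1070 expected counts. The mean was 874 ± 543 TPM (SD, n = 2), rank 160 among the 10998 genes that reached 1 TPM in each replicate. The replicate 1 minus replicate 2 difference was 1.36 on the log2(TPM + 0.5) scale, and per library depth the counts differed 2.57-fold, with an exact 95% binomial interval of 2.39 to 2.76 that covers counting error only. It was the only 1 of the 8 members past 2-fold, against 0.283% of 11661 genes with a mean count of 20 or more past 2-fold higher in replicate 1 and 0.137% past 2-fold lower. Because the set was chosen with this difference known, nothing is read from that count. In counts scaled to other RNAs without a poly(A) tail, the difference of Rn7sk was 0.69, under 2-fold, with the median of all genes at -0.65. Relative to that median Rn7sk stood at 1.34. This scaling uses summed counts, most of them from Rn7s1, Rn7s2 and Malat1. Among the 3488 genes with a mean count within a factor of 2 of that of Rn7sk, the median absolute difference was 0.11, and none but Rn7sk lay as far from 0. Of 9763 genes with a mean count of at least 100, 5 had a difference at or above 1.36, Rn7sk included. Both rankings use the difference that was known when the set was chosen, so nothing is read from them.

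The level of Rn7sk also depends on how its length enters. The authors' effective length was 108 nt in replicate 1 and 109 nt in replicate 2, 32.7% and 32.9% of its 331 nt, while those of the protein-coding members were 83.5% to 95.9% of their lengths. TPM divides by the effective length. Counts per annotated length, scaled to the same total as TPM, gave Rn7sk 593 in replicate 1 and 235 in replicate 2. In bulk RNA, fewer cells that make an RNA and less of it per cell cannot be told apart.

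**Figure D2:**
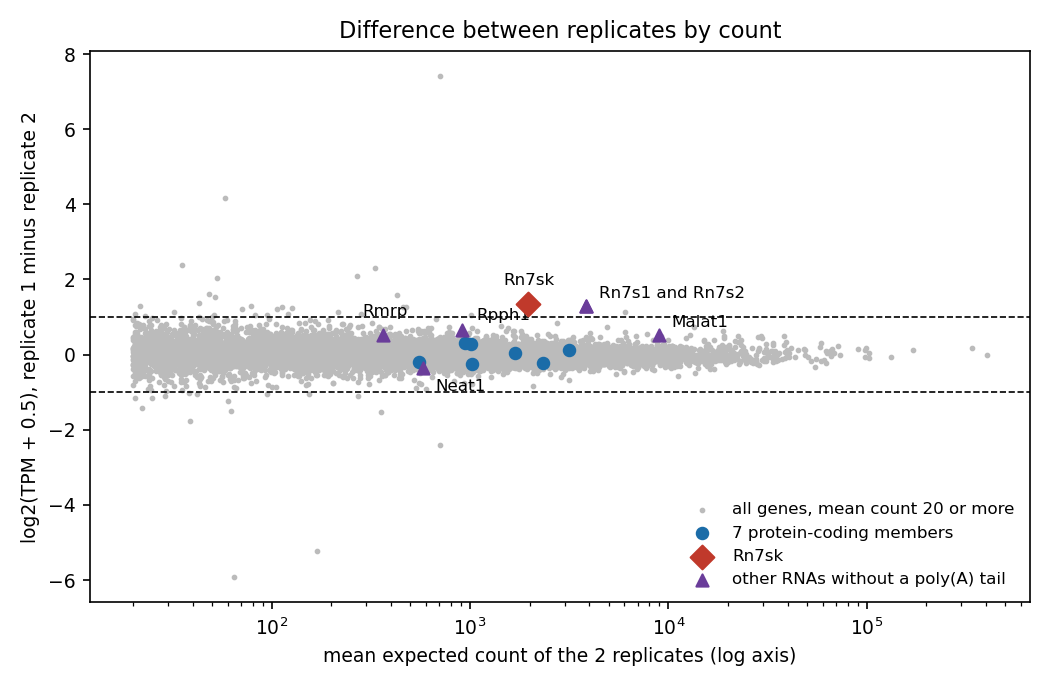
Difference in log2(TPM + 0.5), replicate 1 minus replicate 2, against the mean expected count (log axis), for 11661 genes (grey), the 7 protein-coding members (blue), Rn7sk (red) and 6 other RNAs without a canonical poly(A) tail (purple, Neat1 so in its long form only, Rn7s1 and Rn7s2 on the same point). Dashed lines mark 2-fold. Rn7sk stood at 1.36, beside Rn7s1 and Rn7s2 at 1.29, and the protein-coding members between -0.25 and 0.30.

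Of 7 other RNAs known to lack a canonical poly(A) tail, Neat1 in its long form only, 6 were higher in replicate 1. Those past 2-fold were Rn7s1 and Rn7s2, which share their reads, so the 6 are not all separate measurements. All but Terc had enough counts to be among the 11661 genes, of which 0.283% were past 2-fold higher in replicate 1, with a median difference of 0.0022. Rn7s1 and Rn7s2, the RNA of the signal recognition particle, each had 3410 TPM in replicate 1 and 1395 TPM in replicate 2, a log2 difference of 1.29. Their counts were identical to each other in each library, 5518.5 and 2180.5, so the reads were split evenly and the copies cannot be told apart. Rpph1, the RNA of RNase P, had 561 and 356 TPM, a difference of 0.66. Rmrp, the RNA of RNase MRP, had 428 and 296 TPM, a difference of 0.53. Both were higher in replicate 1 and under 2-fold. Malat1, whose 3′ end is a triple helix rather than a poly(A) tail, had 194 and 134 TPM, also a difference of 0.53. Neat1, whose long form ends in the same way, went against the others with 6.54 TPM in replicate 1 and 8.55 TPM in replicate 2. These values are for the Neat1 gene, with its forms not separated. Terc, the telomerase RNA, had only 7 and 3 counts. Together the 7 RNAs took 943 CPM (counts scaled by the total gene count) in replicate 1 and 593 CPM in replicate 2. The part of this class of RNA in the difference of Rn7sk was not tested.

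Set against Rn7s1 within each library, Rn7sk had a ratio of TPM of 0.369 in replicate 1 and 0.351 in replicate 2. These ratios restate how close the replicate differences of Rn7sk and Rn7s1 are, 1.36 and 1.29. Set against Rpph1 the ratio was 2.24 and 1.38, and against Rmrp 2.94 and 1.66. The genes whose replicate difference was closest to that of Rn7sk, among those with a mean count of at least 100, were Rn7s1 and Rn7s2 at 1.29, Gm42418 at 1.28 and the histone gene Hist2h2aa1 at 1.27. This likeness rests on 2 libraries of 1 condition. In counts scaled to the ERCC spike-ins, the difference of Rn7sk was 1.04, against 1.36 in CPM. The median of all 11661 genes was -0.30 under ERCC scaling and 0.01 in CPM, and relative to these medians Rn7sk stood at 1.35 under both. Genes past 2-fold numbered 18 higher and 94 lower in replicate 1 under ERCC scaling, against 65 higher and 27 lower in CPM.

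7SK has many annotated relatives that could share its reads. A search of the GENCODE M21 transcripts found 39 copies with at least 80% identity over at least 100 nt, all of the miscellaneous RNA class and spread over 18 chromosomes. All 39 had 0 counts in both libraries, and 38 of them match only a stretch that ends by base 250 of Rn7sk. The exception, Gm23037 at chr17:46403875-46404198, matches from end to end at 89.2% identity, and 3 counts would have given it 1.42 TPM in replicate 1 and 1.47 TPM in replicate 2. For the shortest copies 0 counts say little. The same 3 counts would have been 57.0 and 103 TPM for Gm22481 of 192 nt, and 108 TPM in replicate 1 for Gm26323 of 175 nt. For Gm23671 of 103 nt no such value could be given. Gm24447 at chr15:93234363-93234700 is identical to Rn7sk over 241 bases from the 5′ end, yet only 11 of the 90 bases after that are the same. The pieces below run from base 212 to base 271 of each, with capitals after base 241, to show where reads could begin to tell them apart.
Rn7sk (chr9:78175363-78175422, minus strand): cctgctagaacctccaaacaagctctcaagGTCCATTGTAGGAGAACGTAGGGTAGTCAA
Gm24447 (chr15:93234574-93234633, plus strand): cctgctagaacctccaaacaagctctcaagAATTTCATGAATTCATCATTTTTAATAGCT
The deposited posterior SD of the Rn7sk count was 0.33 in replicate 1 and 0.39 in replicate 2, under 1 count, so the authors' division of reads left almost no doubt between Rn7sk and other features. Whether that division reflects the origin of reads within the shared bases was not tested. The lincRNA C920006O11Rik starts 280 nt away on the opposite strand and had 1.80 and 2.25 TPM.

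The genes for the proteins that stabilise 7SK had similar RNA levels over all their transcripts. Larp7 (chr3:127536714-127553349, minus strand) had 27.5 TPM in replicate 1 and 32.8 TPM in replicate 2, from 952 and 1091 counts, a mean of 30.2 ± 3.77 TPM (SD, n = 2). Mepce (chr5:137781906-137787655, minus strand) had 28.6 and 23.5 TPM, from 1158 and 863 counts, a mean of 26.0 ± 3.61 TPM (SD, n = 2). The genes differed in opposite directions, Larp7 by -0.25 and Mepce by 0.28 on the log2 scale, both under 2-fold. The ratio of Larp7 to Mepce was therefore 0.963 in replicate 1 and 1.40 in replicate 2, and which is higher changed with the replicate.

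These genes also differed in their transcripts. Larp7 has 1 transcript in the tables, of 1880 nt, which has 570 codons in GENCODE M21. Of the TPM of Mepce, the complete transcript Mepce-201 of 666 codons had 63.0% in replicate 1 and 58.9% in replicate 2. Mepce-202, a fragment of 524 nt with a partial coding sequence, had 34.6% and 41.1%. By counts Mepce-201 held 94.3% and 93.2%, and Mepce-202 only 62.2 and 58.3 counts, which its short effective length turns into a larger share of TPM. Counting only the transcript with a complete coding sequence, Mepce stood at 17.99 and 13.8 TPM, below Larp7 in both replicates. The ratio of Larp7 to Mepce was then 1.53 in replicate 1 and 2.38 in replicate 2. The miRNAs Mir302a, Mir302b, Mir302c, Mir302d and Mir367 lie in the Larp7 gene on the opposite strand, and each had 0 counts, with RNA under 200 nt outside the size range used.

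The HEXIM genes, which encode the inhibitors, lie next to each other on chromosome 11 in the same direction, 12703 nt apart. Hexim1 (chr11:103116231-103119725, plus strand) had 15.5 TPM in replicate 1 and 12.5 TPM in replicate 2, from 1060 and 822 counts, a mean of 14.0 ± 2.10 TPM (SD, n = 2). Hexim2 (chr11:103132429-103139876, plus strand) had 22.1 and 25.2 TPM, from 531 and 569 counts, a mean of 23.6 ± 2.18 TPM (SD, n = 2). Hexim2 was higher than Hexim1 in both replicates, and their ranges did not overlap. The ratio of Hexim1 to Hexim2 was 0.702 in replicate 1 and 0.498 in replicate 2.

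Counts gave the opposite order, 2.00 and 1.44 Hexim1 counts for each Hexim2 count, since Hexim1 is a single exon of 3495 nt and the mean length of Hexim2 transcripts was 1374 and 1350 nt. Hexim1 has a single transcript of 356 codons. Hexim2-201 and Hexim2-202 encode the same 313 codons and differ outside the coding sequence. Hexim2-201 had 46.6% and 47.4% of the gene's TPM, and Hexim2-202 had 29.8% and 22.6%. Restricted to complete coding sequences, Hexim2 had 16.9 and 17.6 TPM, and the ratio of Hexim1 to Hexim2 was 0.919 and 0.712. With fragments left out, Hexim2 was still the higher in each replicate.

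Cdk9 (chr2:32705784-32713076, minus strand), the kinase subunit, had 56.7 TPM in replicate 1 and 55.1 TPM in replicate 2, from 1768 and 1590 counts. Its mean was 55.9 ± 1.10 TPM (SD, n = 2), and its log2 difference of 0.04 was the smallest of the 8. Above every other protein-coding member in both replicates, it ranked 2291 among the 9862 protein-coding genes at 1 TPM or more. The median of those genes was 19.2 TPM.

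The partner cyclins were nearly level with each other in replicate 2 and further apart in replicate 1. Ccnt1 (chr15:98538689-98570923, minus strand) had 31.7 TPM in replicate 1 and 29.0 TPM in replicate 2, from 3305 and 3013 counts, a mean of 30.3 ± 1.87 TPM (SD, n = 2). Ccnt2 (chr1:127774164-127808061, plus strand) had 23.8 and 28.0 TPM, from 2182 and 2498 counts, a mean of 25.9 ± 2.91 TPM (SD, n = 2). In TPM, Ccnt1 was higher than Ccnt2 in each replicate, by a ratio of 1.33 in replicate 1 and 1.04 in replicate 2. In replicate 1 their deposited TPM bounds did not overlap, 29.3 to 34.7 for Ccnt1 and 21.9 to 25.4 for Ccnt2. In replicate 2 these bounds overlapped, 27.2 to 32.2 for Ccnt1 and 26.0 to 29.5 for Ccnt2. Counts per annotated length gave a ratio of 1.27 in replicate 1 and 0.999 in replicate 2. An annotated antisense transcript in Ccnt1, 9330020H09Rik, had 38 and 36 counts, and whether the authors' counting used strand is not given in the sources used here.

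Cdk9 was spread over 9 transcripts. Cdk9-201, of 372 codons, had 23.3 TPM in replicate 1 and 25.9 TPM in replicate 2. Cdk9-202, which starts at another exon and has 321 codons, had 22.4 and 17.1 TPM. The long form was higher in both replicates, and their deposited posterior SDs were 72.9 and 76.1 counts in replicate 1, against counts of 737 and 629. Cdk9-204, annotated as a retained intron, had 344 and 291 counts, and all 4 retained-intron transcripts of Cdk9 held 20.6% and 20.5% of its counts and 13.9% and 17.5% of its TPM. Transcripts with a complete coding sequence summed to 45.8 and 43.0 TPM, still the highest of the protein-coding members.

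**Figure D3:**
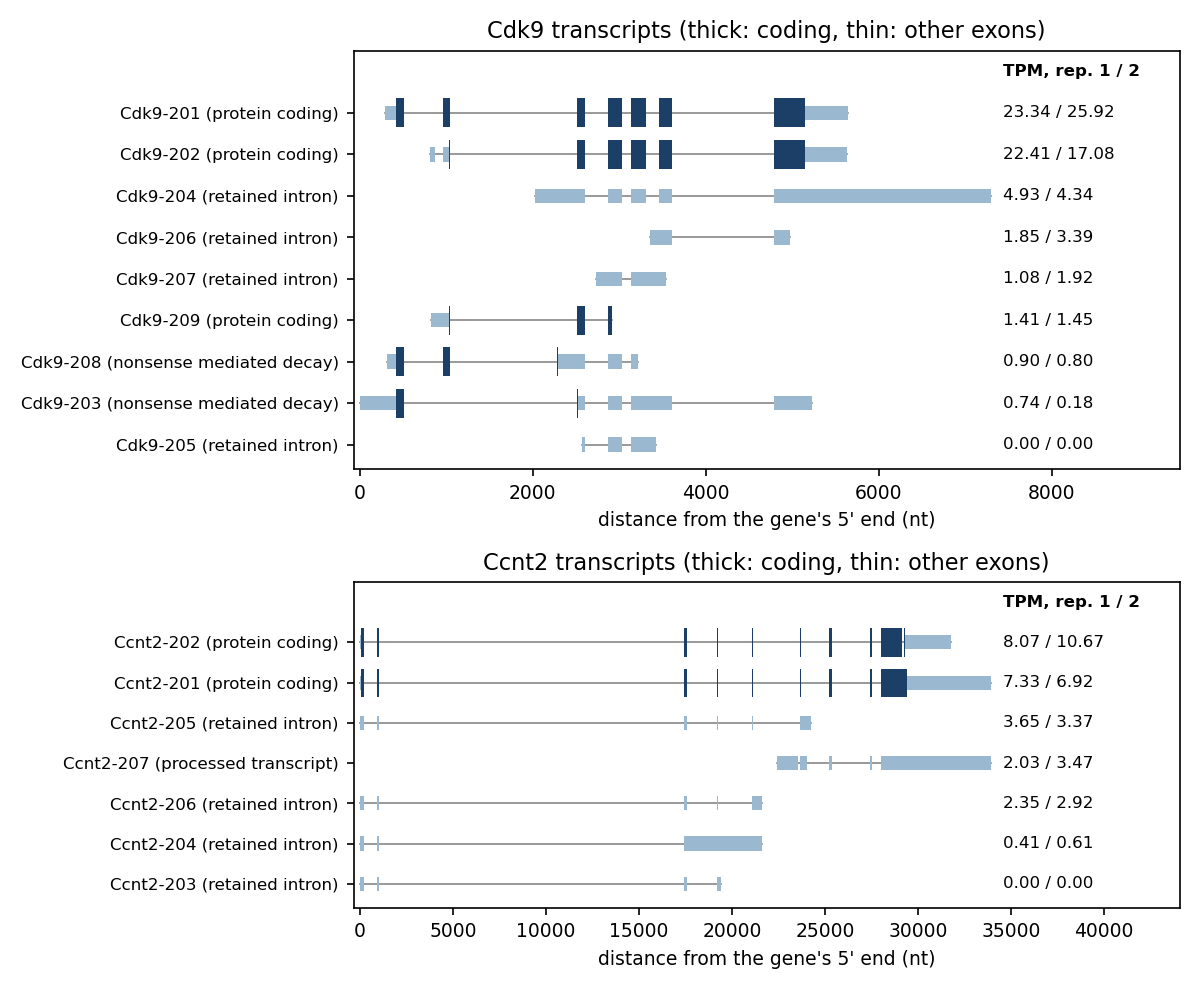
Exons of the 9 Cdk9 and 7 Ccnt2 transcripts by distance from the gene's 5′ end (nt), with coding parts dark and thick and other exon parts light and thin, and TPM in replicate 1 and replicate 2 at the right. Cdk9-201 and Cdk9-202 differ at their 5′ ends, and Ccnt2-201 and Ccnt2-202 near the end of the coding sequence and at their 3′ ends.

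Ccnt1 was the simpler of the cyclin genes. Ccnt1-208, of 7397 nt and 724 codons, had 66.4% and 69.4% of its TPM and 95.4% and 96.2% of its counts. The short processed transcript Ccnt1-203 of 683 nt had 19.7% and 21.0% of the TPM on 59.95 and 56.3 counts. Ccnt1-201, which encodes as many codons as Ccnt1-208 on 2175 nt, had 0 counts in both replicates.

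Ccnt2 had a pair of coding forms, and which was higher depended on the unit. Ccnt2-201, of 723 codons, had 7.33 TPM in replicate 1 and 6.92 TPM in replicate 2, and Ccnt2-202, of 657 codons, had 8.07 and 10.7 TPM. They differ by an intron of 98 nt that Ccnt2-202 removes inside the coding sequence and Ccnt2-201 keeps as exon, and by their 3′ ends. Ccnt2-201, of 6738 nt, runs to chr1:127808061, and Ccnt2-202, of 4511 nt, to chr1:127805932. The values of these forms are therefore not a measure of the intron alone. The 40 bases at the intron show that change, with capitals after the shared exon end at chr1:127803293. From there Ccnt2-202 goes on at chr1:127803392.
Ccnt2-201: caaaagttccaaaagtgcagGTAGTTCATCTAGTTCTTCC
Ccnt2-202: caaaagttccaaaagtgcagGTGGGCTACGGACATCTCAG
A length of 98 nt is not a multiple of 3, so the forms have different reading frames after the junction. Ccnt2-202 was higher than Ccnt2-201 in both replicates in TPM. Their deposited bounds overlapped in replicate 1 and did not in replicate 2, where Ccnt2-202 lay between 8.94 and 11.9 TPM and Ccnt2-201 between 5.60 and 7.95 TPM. By counts, replicate 1 had 724 on Ccnt2-202 and 998 on Ccnt2-201, and replicate 2 had 918 and 904. Transcripts with a retained intron held 26.9% and 24.7% of the TPM of Ccnt2 but only 6.64% and 6.45% of its counts, and the processed transcript Ccnt2-207 of 7640 nt held 14.5% and 20.6% of the counts.

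**Figure D4:**
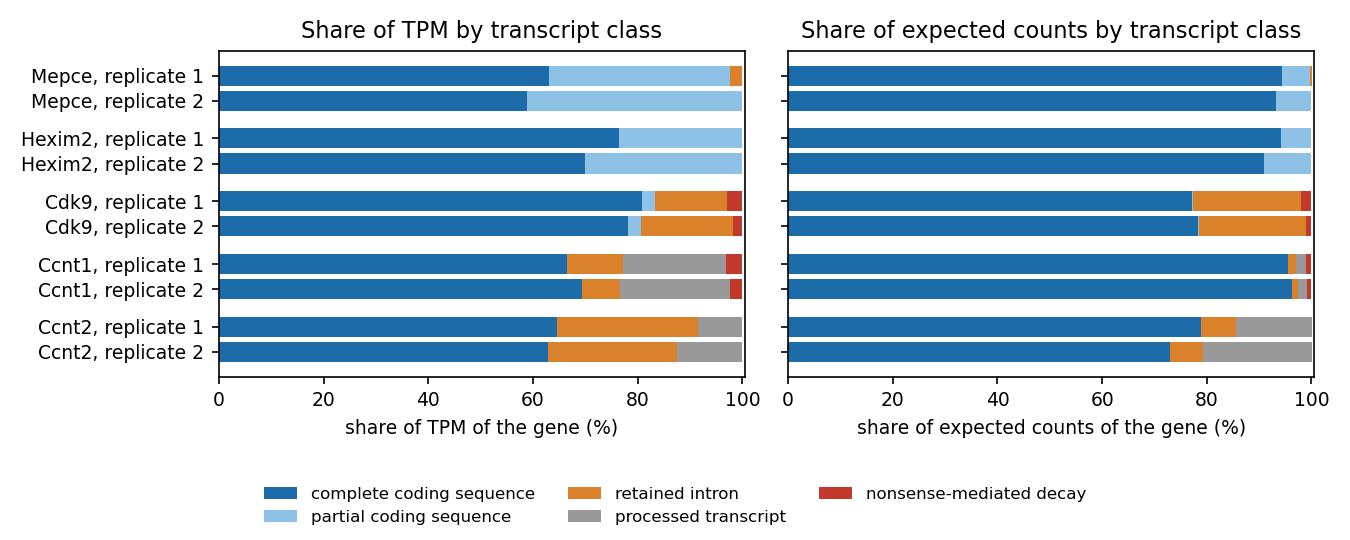
Share of each gene's TPM (left) and of its expected counts (right), in percent, by annotated transcript class in replicates 1 and 2, for the 5 members with several transcripts. Complete coding sequences took 58.9% to 80.7% of TPM and 72.9% to 96.2% of counts.

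In TPM over all transcripts, the sums of the cyclins and of the HEXIM genes varied less than their parts. The T-type cyclins together had 55.5 TPM in replicate 1 and 57.0 TPM in replicate 2, against 56.7 and 55.1 TPM for Cdk9, a ratio of 1.01 ± 0.0385 (SD, n = 2). The HEXIM genes together had 37.6 and 37.7 TPM, 0.674 ± 0.0148 of Cdk9 and 0.669 ± 0.0109 of the cyclins (SD, n = 2). The 7 protein-coding members summed to 206 TPM in each replicate. Over transcripts with a complete coding sequence, the ratio of the cyclins to Cdk9 was 0.837 ± 0.0574 and that of the HEXIM genes to the cyclins 0.843 ± 0.0636 (SD, n = 2). These are ratios of RNA, and protein was not measured.

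Ratios with Rn7sk on top moved with Rn7sk. It had 22.2 TPM for each TPM of Cdk9 in replicate 1 and 8.89 in replicate 2. For each TPM of Larp7 it had 45.8 and 14.9, for each of Mepce 44.1 and 20.9, and for each of the HEXIM genes together 33.5 and 13.0. Rn7sk had 6.11 times the TPM of all 7 protein-coding members together in replicate 1 and 2.38 times in replicate 2. Counts per annotated length put the ratio of Rn7sk to Cdk9 at 8.63 and 3.53.

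The order by mean TPM was Rn7sk, Cdk9, Ccnt1, Larp7, Mepce, Ccnt2, Hexim2 and Hexim1. The replicate ranges of neighbours overlapped from Ccnt1 through Hexim2, while Rn7sk, Cdk9 and Hexim1 stood apart from their neighbours. Among those in between, both values of Ccnt1 lay above both values of Mepce, Ccnt2 and Hexim2, and both of Larp7 above both of Hexim2. The protein-coding members differed 1.03-fold to 1.24-fold between replicates, 4 of them higher in replicate 1 and 3 in replicate 2. For Rn7sk, Larp7, Hexim1 and Ccnt2 the deposited TPM bounds of the replicates did not overlap, 4 of 8 members against 20.5% of the 11661 genes, and nothing is read from that count. Those bounds cover the division and counting of reads within a library. In counts scaled to ERCC spike-ins, where the median of all genes was -0.30, the differences of Cdk9, Ccnt1 and Hexim1 were below 0, at -0.22, -0.24 and -0.0027. In CPM they were above 0, at 0.10, 0.08 and 0.31.

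The other genes around P-TEFb were then set beside the members. All 49 genes of 7 protein-coding lists were at 1 TPM or more in both replicates, where 45.9% of protein-coding genes were. The lists were chosen with earlier results of these data known, so nothing is read from that contrast. The 49 genes had a median of 23.7 TPM, against 19.2 TPM over the expressed protein-coding genes. None of the 49 was past 2-fold. Of 11661 genes, 0.283% were past 2-fold higher in replicate 1 and 0.137% past 2-fold lower, so nothing is read from that count. Of the 49, 23 were higher in replicate 1 and 26 in replicate 2.

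**Figure D5:**
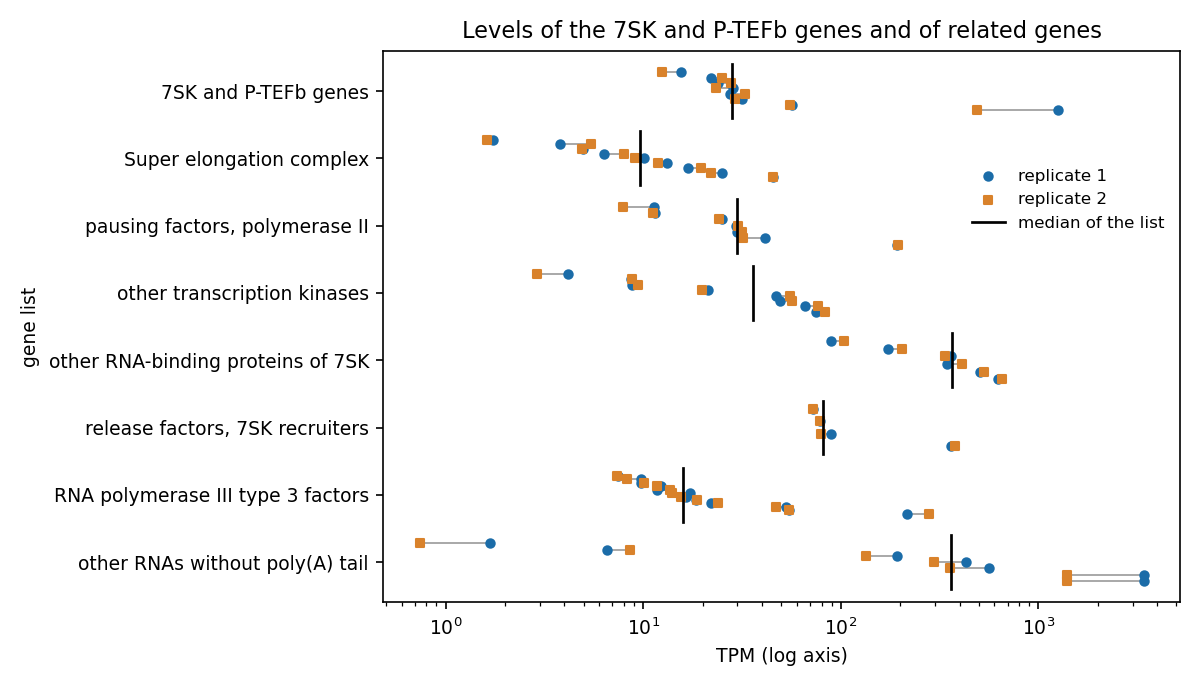
TPM (log axis) of the 8 members and of each gene in 7 related lists, with replicate 1 as blue circles, replicate 2 as orange squares, grey lines joining them and black lines at each list's median. The lists shown leave out the BET proteins and include the other RNAs without a poly(A) tail. The other RNA-binding proteins of 7SK lay highest among the protein-coding lists shown, with a median of 364 TPM.

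In the super elongation complex, which carries active P-TEFb to genes, the 9 members ranged from Ell3 with 1.74 TPM in replicate 1 and 1.63 in replicate 2 to the elongation factor Ell2 with 45.3 TPM in each. The scaffold genes Aff1 and Aff4 had means of 9.64 ± 0.714 and 18.3 ± 1.92 TPM (SD, n = 2). Among the BET proteins, which bind acetylated histones, Brd2 had 87.3 and 84.6 TPM, and Brd3 had 1.89 and 1.93 TPM.

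Pausing factors and polymerase, the substrates of P-TEFb among them, had a median of 29.9 TPM. Supt4a, a subunit of the DSIF factor, was the highest with 193 and 195 TPM. Polr2a, the large subunit of RNA polymerase II, was the lowest with 11.4 and 7.88 TPM. The other transcription kinases and cyclins ranged from Ccnk, the partner of Cdk12 and Cdk13, with 4.18 and 2.92 TPM, to the Mediator kinase Cdk8 with 74.6 and 83.3 TPM.

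RNAs of other proteins known to bind 7SK were high. Srsf1, a splicing factor, had 626 and 653 TPM, and Hnrnpr, the lowest of the 6, had 89.5 and 104 TPM, above all 7 protein-coding members. Of the factors that release P-TEFb or recruit the 7SK particle to chromatin, Trim28 had 363 and 377 TPM and the phosphatase gene Ppm1g had 72.8 and 72.3 TPM. The 12 genes for transcription and 3′ ends of RNAs like 7SK ranged from Polr3a, the large subunit of RNA polymerase III, with 7.50 and 7.34 TPM, to Ssb, the La protein that binds the 3′ ends of new polymerase III transcripts, with 216 and 281 TPM. Of those 12, 6 were higher in replicate 1 and 6 in replicate 2, with differences between -0.38 for Ssb and 0.30 for Snapc2.

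Depth was close in the libraries, 24379174 gene counts in replicate 1 and 23517901 in replicate 2, with 0.320% and 0.257% of all counts on spike-ins. Over the 11661 genes, the absolute log2 difference had a median of 0.14. Whole-number counts of the libraries differed beyond sampling noise, with a chi-square of 10.2 per degree of freedom over 9880 genes, so they are not copies of 1 library. Counts within 0.01 of a whole number were taken as whole, and the chi-square sets the libraries against counting noise alone, so that they are biological replicates rests on the labels. All 6 B-cell markers were at 1 TPM or more, from Pax5 at 9.09 and 7.77 TPM to Ms4a1 at 493 and 554 TPM. Neither the 2 T-cell nor the 3 myeloid markers reached 1 TPM in either replicate. Of them, Cd3e, Cd14 and S100a8 had 0 counts in both, where 3 counts would have given 0.118, 0.106 and 0.848 TPM in replicate 1. These lists are short, and other genes often used as T-cell or myeloid markers were counted, such as Lck with a mean count of 1913 and Cd68 with 1712, named after their values were seen. Epcam, an epithelial marker, had 0.84 and 1.23 TPM.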

How the data were processed

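Expression was measured by RNA sequencing in 2 libraries of CH12.LX. Per the labels and file headers, the authors deposited, for each library, tables of genes and transcripts on mm10 with GENCODE annotation M4. The aligner and quantification tool are not given in the sources. Expected counts, deposited by the authors, divide shared reads between features and are not normalized. TPM and FPKM values deposited by the authors are scaled by effective length within each library. The isoform percent deposited by the authors is a transcript's share of its gene's TPM. The posterior SD of the count is a deposited score of how uncertain that division is, and bounds of TPM were deposited too.

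Names, coordinates and transcript types came from GENCODE M21 on the same assembly, by identifier without version, and 42462 of 43346 genes had a symbol. Of the members' 36 transcripts, 35 had the same length in both annotations, and the other is Larp7-201. Differences are replicate 1 minus replicate 2 in log2(TPM + 0.5), a scale that understates changes of low genes, over 11661 genes with a mean count of at least 20. Called means past 2-fold. Copies of 7SK were found with blastn 2.17.0. TMM factors came from edgeR 4.0.16 on rounded expected counts. The code was checked on simulated data. Members, gene lists and the rule for named genes (all members, the highest, lowest and any past 2-fold of each list, and the 5 genes closest to Rn7sk) were chosen with earlier results of these data known. Some genes that the rule names are not reported here. Alternatives were other pseudocounts, count minimums, scalings, lengths, transcript sets and each replicate alone. No p-value is given, since the design has 1 group of 2, and intervals cover counting error only.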

Additional observations from a re-analysis of the deposited data

How the results depend on the processing

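No paired analysis was possible because the study has 1 group. Of 226 alternative values of 36 results, 158 stayed within the spread used to judge them, 68 moved further and 0 changed the sign of a called value. The log2 difference of Rn7sk was 1.04 scaled to ERCC counts, with the median of all genes at -0.30, and 0.69, no longer past 2-fold, scaled to the other RNAs without a poly(A) tail, with that median at -0.65. Relative to these medians Rn7sk stood at 1.35 and 1.34. Genes past 2-fold higher in replicate 1, 33 in TPM, numbered 157 with no filter on counts, 17 at a mean count of 100 or more, 67 with a pseudocount of 0.1, 65 in CPM, 62 with TMM, 62 with median-of-ratios factors, 18 with ERCC scaling and 6 with scaling to the other RNAs without a poly(A) tail. Those lower, 16 in TPM, numbered 128, 5, 27, 27, 28, 28, 94 and 513 under the same settings, 10 with a pseudocount of 1 and 8 with posterior mean TPM, and the cause was not tested. The ratio of Hexim1 to Hexim2, 0.600 ± 0.144 in TPM, was 1.72 in counts, which ignore length, and 0.816 over complete coding sequences. The ratio of Rn7sk to Cdk9, 15.5 ± 9.41 in TPM, was 1.14 in counts and 6.08 in counts per annotated length, which undo the short effective length of Rn7sk. With each replicate alone, the level of Rn7sk ranged between 490.0 and 1258 TPM, its ratio to Cdk9 between 8.89 and 22.2, that of Hexim1 to Hexim2 between 0.498 and 0.702, and that of Ccnt1 to Ccnt2 between 1.04 and 1.33; all 8 members and all 49 listed genes were at 1 TPM or more in each. In replicate 2 alone only 3 members kept their place in the order by level, Rn7sk, Cdk9 and Hexim1. The complete coding sequences, annotated lengths, 7SK copies summed with Rn7sk, the scaling to other RNAs without a poly(A) tail and, for counts of genes, the median-of-ratios, ERCC and FPKM scalings were chosen after seeing the data. With 2 libraries the spread itself is poorly known.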
